A study of Homo sapiens with 8 samples.

Results

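SPDEF and 8 genes of airway secretory cells were followed through 8 RNA-seq libraries of A549, a human lung adenocarcinoma cell line. The genes were the transcription factor SPDEF, the forkhead factors FOXA1, FOXA2 and FOXA3, the lung lineage factor NKX2-1, the secretory pathway gene AGR2, the gel-forming mucins MUC5AC and MUC5B, and the secretory pathway regulator CREB3L1. They are 9 of the 60664 genes in the count table and were chosen by symbol, around SPDEF. SPDEF itself was picked for its loss with IFN-γ and its recovery with AX-0085, so those differences of SPDEF are described here without a test. Of the 9 genes, 8 had counts and all 8 passed the expression filter. NKX2-1 had 0 counts in every library.

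The libraries formed 4 groups of 2. The groups were untreated cells, cells given IFN-γ, cells given the kinase inhibitor AX-0085, and cells given both. The labels give IFN-γ as 20 ng, followed after 24 h by AX-0085 at 0.5 μM and after a further 24 h by harvest. All groups were the same line in the same medium, so that a single cancer cell line stands for lung epithelium here. The labels do not say whether the 2 libraries of a group came from separate cultures, and the p-values then measure only the spread between these libraries. Total counts lay between 20672828 and 29978251 per library, and 3 counts, taken as the floor of a library, corresponded to 0.0959 to 0.158 CPM (counts relative to library size). Floors, and the intervals called counting intervals, cover counting error only, whereas the 95% intervals of log2 fold changes come from edgeR and include the spread between libraries. Mitochondrial genes took 3.55% and 2.72% of counts in untreated cells, 1.71% and 1.82% with IFN-γ, 2.87% and 3.43% with both, and 4.12% and 5.73% with AX-0085, so that this share was lowest and highest in the same groups as SPDEF. Its part in the results was not tested.

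SPDEF is an ETS-family transcription factor that is needed for goblet cell differentiation in the airway and gut. Goblet cells make gel-forming mucins, which are folded in the endoplasmic reticulum with the help of the protein disulfide isomerase AGR2 and then heavily O-glycosylated in the Golgi. In the airway, FOXA2 is known as a restraint on mucus production, FOXA3 promotes it, and interleukin-13 acting through STAT6 is the best-known inducer. IFN-γ signals through Janus kinases and is known for the induction of antigen presentation and guanylate-binding proteins.

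The labelled treatment could be seen in the libraries. GBP1, a guanylate-binding protein induced by IFN-γ, had 4 and 2 counts in the untreated libraries, 6377 and 8034 with IFN-γ, 73 and 53 with both, and 2 and 1 with AX-0085. CD274, which encodes PD-L1, had 3 and 5, 104 and 161, 14 and 10, and 3 and 10 counts in the same order. Epithelial markers were present, and 6 of 7 had at least 10 counts in every library. They also moved with the treatments. Of the 7, 5 were called lower and 0 higher with IFN-γ, where 17.2% of all genes were called lower and 10.3% higher. On addition of AX-0085, 3 were called higher and 0 lower, where 16.5% of all genes were called higher and 8.28% lower. The medians were -1.40 and 0.66. The summed level of the 7 markers was 8823 to 9553 CPM in untreated cells, 6513 to 7400 with IFN-γ, 7223 to 7307 with both and 5762 to 6092 with AX-0085. The adhesion molecule EPCAM had 103 and 81 counts in untreated cells, 9 and 7 with IFN-γ, 99 and 60 with both, and 209 and 229 with AX-0085. Other markers of the list differed from it. The keratin KRT7 was 0.74 on the log2 scale with IFN-γ, and KRT18 was -0.17 on addition of AX-0085. With AX-0085 alone, 1 of the 7 was called higher (EPCAM) and 1 lower (KRT18, -1.30), against 6.41% and 5.62% of all genes. Leukocyte markers were at 0 or near it in every library, with a summed level of at most 0.0331 CPM, although CD68 cannot be judged because it shares exons with another gene. The 5 ciliated cell markers summed to 16.7 and 17.5 CPM in untreated cells, 3.94 and 4.23 with IFN-γ, 15.9 and 17.8 with both, and 20.4 and 20.8 with AX-0085. Of these 5, 2 were called lower with IFN-γ (FOXJ1 and TPPP3) and 3 higher on addition of AX-0085, against the same shares of all genes. CAPS, 1 of the 3, passed the expression filter only through libraries given AX-0085. The defining factor FOXJ1 had 31 and 26, 0 and 0, 19 and 7, and 15 and 19 counts. The part of such other cell programs in the results was not tested. In bulk RNA, fewer cells expressing a gene and less RNA per cell cannot be told apart.

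Goblet and club cell genes were only partly measurable in this line. Of 27 secretory effector genes, 6 had 0 counts in all libraries and 9 passed the filter. The goblet cell product CLCA1, the secreted airway proteins BPIFA1 and SCGB3A1, and the trefoil peptide TFF2 had no counts. ERN2, the inositol-requiring kinase of mucous cells, had 2 counts over all 8 libraries, and TFF3, a goblet cell trefoil peptide, had 3. SCGB1A1, the club cell secretoglobin, had 21 and 9 counts in untreated cells, 1 and 5 with IFN-γ, 2 and 1 with both, and 0 and 2 with AX-0085, too few for the test. The surfactant gene SFTPB had at most 1 count in any library. The absence of NKX2-1 counts cannot be read as absence of its RNA, because all of its exon bases lie inside other annotated genes and 40.7% lie in their exons, and its neighbours SFTA3 and NKX2-1-AS1 were also at 0. Of the 28 listed or marker genes with 0 counts in all libraries, 16 overlap another gene and 13 share exon bases with one.

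The promoter windows of SPDEF and AGR2 are shown because AGR2 had the same order of group means as SPDEF and the closest pattern among the 9. FOXA1 had that order too, with overlap between its untreated libraries and those given both. They run from 250 bases before to 50 bases after the RefSeq start on GRCh38.p14 and are printed in the direction of transcription. SPDEF lies at chr6:34556280-34556579 and AGR2 at chr7:16804950-16805249, both on the minus strand. Capitals mark a forkhead-like match on the opposite strand.
SPDEF: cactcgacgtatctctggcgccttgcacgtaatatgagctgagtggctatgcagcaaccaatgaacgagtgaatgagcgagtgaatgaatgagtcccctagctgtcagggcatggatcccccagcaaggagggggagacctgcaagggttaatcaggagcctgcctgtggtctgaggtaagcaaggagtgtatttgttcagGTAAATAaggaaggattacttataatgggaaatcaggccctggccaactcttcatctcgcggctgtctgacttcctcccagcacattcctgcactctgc
AGR2: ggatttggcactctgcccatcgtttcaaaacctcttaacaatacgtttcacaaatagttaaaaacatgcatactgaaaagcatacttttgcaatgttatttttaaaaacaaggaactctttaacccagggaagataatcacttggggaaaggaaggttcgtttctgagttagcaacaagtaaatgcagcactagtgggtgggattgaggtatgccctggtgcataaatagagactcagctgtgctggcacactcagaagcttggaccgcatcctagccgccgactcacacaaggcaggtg
Of the 9 genes, 6 had a window in the table. The motifs searched on both strands were TGTTTAC (forkhead), a STAT6 element (TTC and GAA with 4 bases between), the interferon element ISRE (GAAA, 2 bases, GAAA) and GGATGT (SPDEF). They were found in 3.42%, 6.44%, 3.57% and 10.1% of 35116 promoters of the same length, and in none of the windows of SPDEF, AGR2, FOXA1, FOXA3 or CREB3L1, while 1 of 2 NKX2-1 windows held TGTTTAC. Another forkhead-like string, TATTTAC, was added after the sequence had been read. It is in 2.67% of promoters and matched the SPDEF window at position -49 from the start. A match is a description of letters, and no match says only that these letters are not in the window.

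SPDEF was almost lost with IFN-γ and came back above the untreated level when AX-0085 was added. Its counts were 301 and 247 in the untreated libraries, 1 and 1 with IFN-γ, 621 and 385 with both, and 1234 and 1191 with AX-0085. In CPM the levels were 9.96 and 10.1, 0.0528 and 0.0402, 19.9 and 17.3, and 49.2 and 44.8. No neighbouring pair of groups overlapped in this order, with IFN-γ lowest and AX-0085 alone highest. From the 2 counts in both IFN-γ libraries, the untreated level was 219 times the IFN-γ level (95% exact counting interval 60.4 to 1814). The level with both was 412 times that with IFN-γ (114 to 3405). Cells given both were 0.90 ± 0.10 (SE) higher than untreated cells and 1.33 ± 0.09 lower than cells given AX-0085 alone on the log2 scale. AX-0085 alone does not involve the libraries for which SPDEF was picked beyond the shared untreated ones, and there SPDEF rose 4.69-fold (log2 fold change 2.23 ± 0.09 SE, edgeR's quasi-likelihood test, Benjamini-Hochberg adjusted p = 1.487e-09), in 2 of 2 libraries.

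**Figure D1:**
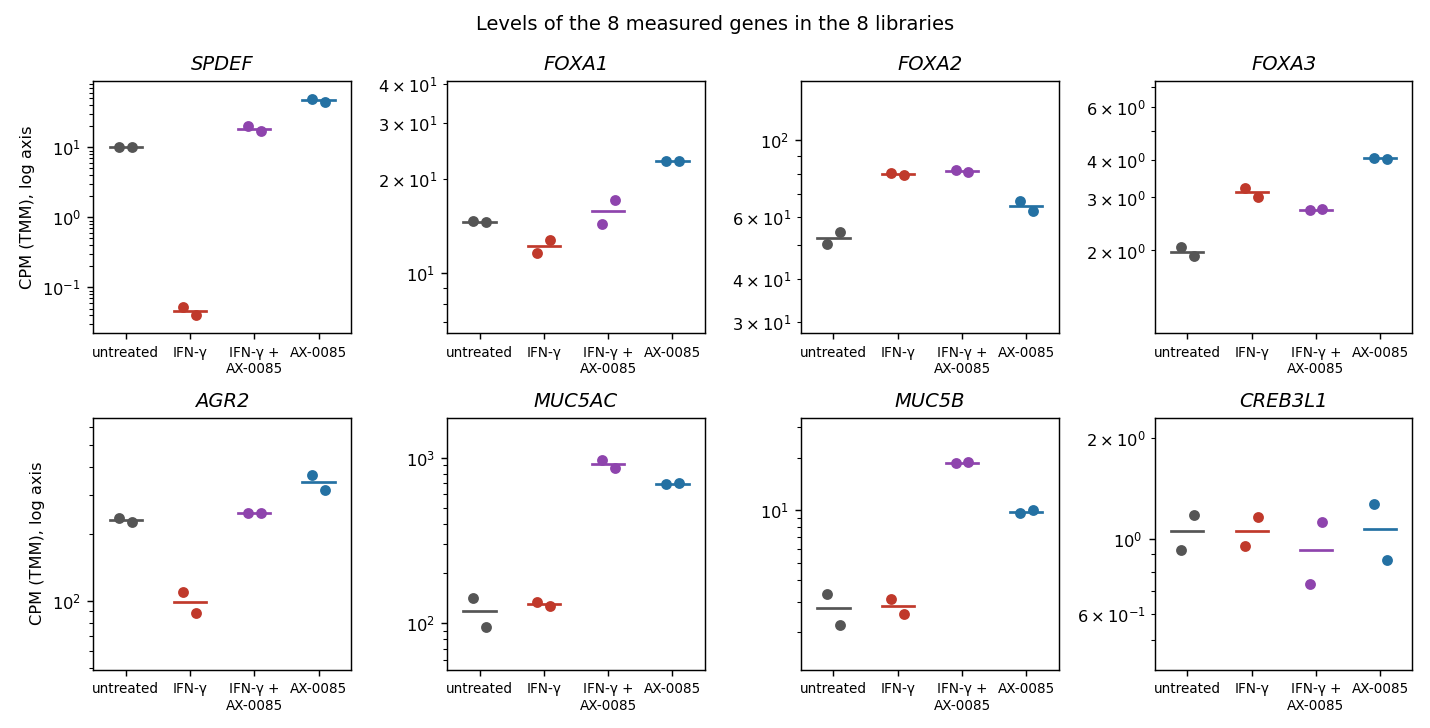
Levels of the 8 measured genes in CPM on a log axis, by group. Points are the 2 libraries of a group and lines their mean. SPDEF was at 0.0528 and 0.0402 CPM with IFN-γ and at least 9.96 in every other library, whereas MUC5AC and MUC5B were high in both groups given AX-0085.

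A gene is called changed below where the adjusted p was under 0.05 and the change exceeded 1 on the log2 scale. Some counts below use the adjusted p alone. The share of all genes by that measure is not given, so such counts are not read as results about the genes. SPDEF is left out of the counts of called genes except with AX-0085 alone. In IFN-γ against untreated, 1 of the 7 other measured genes was called, AGR2, while 27.5% of the 15066 genes tested were called, 10.3% higher and 17.2% lower. With AX-0085 added to IFN-γ, 3 of 7 were called, all higher (AGR2, MUC5AC and MUC5B), against 24.8% of all genes, 16.5% higher and 8.28% lower. With AX-0085 alone, 4 of 8 were called, all higher (SPDEF, FOXA3, MUC5AC and MUC5B), against 12.0% of all genes, 6.41% higher and 5.62% lower. Cells given both had 2 of 7 called against untreated cells, MUC5AC and MUC5B, where 14.7% of all genes were called, 7.51% higher and 7.23% lower. They had 0 of 7 called against AX-0085 alone, where 3.52% of all genes were called, 1.79% higher and 1.73% lower, although 6 of the 7 had an adjusted p under 0.05 with a log2 fold change under 1 in size, and DESeq2 called 0 as well. In the interaction, which is the difference between the AX-0085 change with and without IFN-γ, 1 of 7 was called, FOXA3, against 18.6% of all genes, 12.1% higher and 6.46% lower. Several of these comparisons share libraries, so that they are not independent of each other.

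AGR2 had the same order of groups as SPDEF with a smaller range of log2 values. This disulfide isomerase of mucin folding had 235 and 227 CPM in untreated cells, 110 and 88.6 with IFN-γ, 248 and 248 with both, and 369 and 313 with AX-0085. The IFN-γ libraries lay apart from all others. AGR2 fell 2.34-fold with IFN-γ (log2 fold change -1.23 ± 0.09 SE, adjusted p = 8.411e-08) and rose 2.51-fold when AX-0085 was added (1.33 ± 0.09 SE, adjusted p = 4.989e-08). With both, it differed from untreated cells by 0.10 (95% interval -0.10 to 0.30). AX-0085 alone gave 0.56 ± 0.09 SE (adjusted p = 1.833e-04), short of the fold required for a call. Over the 8 libraries its log2 CPM had a Pearson's r of 0.986 with that of SPDEF, given as a description over libraries that fall into separate groups.

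The mucins were higher with AX-0085, as SPDEF was, but did not follow its fall with IFN-γ or its order of groups. Over the 8 libraries, Pearson's r of log2 CPM with SPDEF was 0.653 for MUC5AC and 0.626 for MUC5B. MUC5AC, the main secreted mucin of airway goblet cells, had 143 and 94.4 CPM in untreated cells, 134 and 128 with IFN-γ, 969 and 865 with both, and 693 and 704 with AX-0085. The untreated and IFN-γ libraries overlapped, and every library given AX-0085 was above every library without it. The change with IFN-γ was 0.14 (95% interval -0.15 to 0.43, adjusted p = 0.3841), with SPDEF at 1 count in each of the IFN-γ libraries. It depended on the untreated libraries, at 0.52 without replicate 1 (adjusted p = 2.166e-04, under the fold for a call) and -0.12 without replicate 2 (adjusted p = 0.2297). MUC5AC rose 7.01-fold on addition of AX-0085 to IFN-γ (2.81 ± 0.14 SE, adjusted p = 1.841e-09) and 5.88-fold with AX-0085 alone (2.56 ± 0.14 SE, adjusted p = 1.178e-08). The interaction, the difference between these 2 changes, was 0.25 (95% interval -0.15 to 0.66, adjusted p = 0.2827), and 0.52 without untreated replicate 2 (adjusted p = 0.001637).

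MUC5B, the other gel-forming airway mucin, had 3.31 and 2.20 CPM in untreated cells, 3.12 and 2.53 with IFN-γ, 18.6 and 18.8 with both, and 9.60 and 10.0 with AX-0085. Here too the first 2 groups overlapped, and the libraries given both were the highest. MUC5B rose 6.68-fold on addition of AX-0085 to IFN-γ (2.74 ± 0.16 SE, adjusted p = 6.041e-09) and 3.51-fold with AX-0085 alone (1.81 ± 0.16 SE, adjusted p = 8.463e-07). The interaction was 0.93 ± 0.24 SE (adjusted p = 0.005331), with the larger rise in the presence of IFN-γ. This rests on the untreated libraries, as the value was 0.57 without untreated replicate 1 (adjusted p = 0.07107) and 1.17, past the fold for a call, without untreated replicate 2 (adjusted p = 5.607e-04). It was 1.06 without IFN-γ replicate 1. For MUC5B, 39.9% of exon bases lie inside MUC5B-AS1 or MIR6744 and 2.33% in their exons, and MUC5B-AS1 had 0 counts.

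The 2 mucins lie on chromosome 11, 21.9 kb apart and on the same strand, with MUC5AC at 1157953 to 1201138 and MUC5B at 1223066 to 1262172 (GRCh38). MUC5AC was the more abundant in every library. Per kilobase of exon, the ratio of MUC5AC to MUC5B was 46.0 and 45.8 in untreated cells, 45.9 and 53.7 with IFN-γ, 55.6 and 49.0 with both, and 76.9 and 74.7 with AX-0085. The higher ratio with AX-0085 alone goes with the smaller MUC5B rise there.

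The 3 forkhead factors each had a different order of groups. FOXA1 had 14.6 and 14.5 CPM in untreated cells, 11.6 and 12.8 with IFN-γ, 14.3 and 17.1 with both, and 22.7 and 22.7 with AX-0085. It was highest with AX-0085 alone (0.64 ± 0.10 SE, adjusted p = 9.905e-05), without a call in any comparison. FOXA2, the factor known to restrain mucus, had 50.4 and 54.4, 80.1 and 79.0, 81.8 and 80.6, and 66.9 and 62.4 CPM. Its IFN-γ libraries were above the untreated ones by 0.60 ± 0.07 SE (adjusted p = 3.200e-06, under the fold for a call), and adding AX-0085 to IFN-γ gave 0.03 (95% interval -0.11 to 0.17). FOXA3, the factor that promotes goblet cells, had 2.05 and 1.91, 3.22 and 3.01, 2.72 and 2.74, and 4.06 and 4.03 CPM. It rose 2.03-fold with AX-0085 alone (1.02 ± 0.16 SE, adjusted p = 1.522e-04), at the edge of the threshold, and without untreated replicate 2 the value was 0.98 and the call was lost. The interaction of FOXA3 was called at -1.21 ± 0.23 SE (adjusted p = 7.856e-04).

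CREB3L1, a membrane-bound transcription factor that raises secretory capacity, was low and did not separate the groups. Its counts were 28 and 29 in untreated cells, 18 and 29 with IFN-γ, 23 and 25 with both, and 32 and 23 with AX-0085. Its neighbouring groups overlapped throughout, and the 95% interval of the change with IFN-γ ran from -0.66 to 0.73, so that differences within it were not detectable at this depth. Per kilobase of exon, the level in untreated cells was highest for AGR2 at 83.7 CPM per kilobase, followed by FOXA2 at 19.3, MUC5AC at 6.80, SPDEF at 5.23, FOXA1 at 3.30, FOXA3 at 0.933, CREB3L1 at 0.262 and MUC5B at 0.148.

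**Figure D2:**
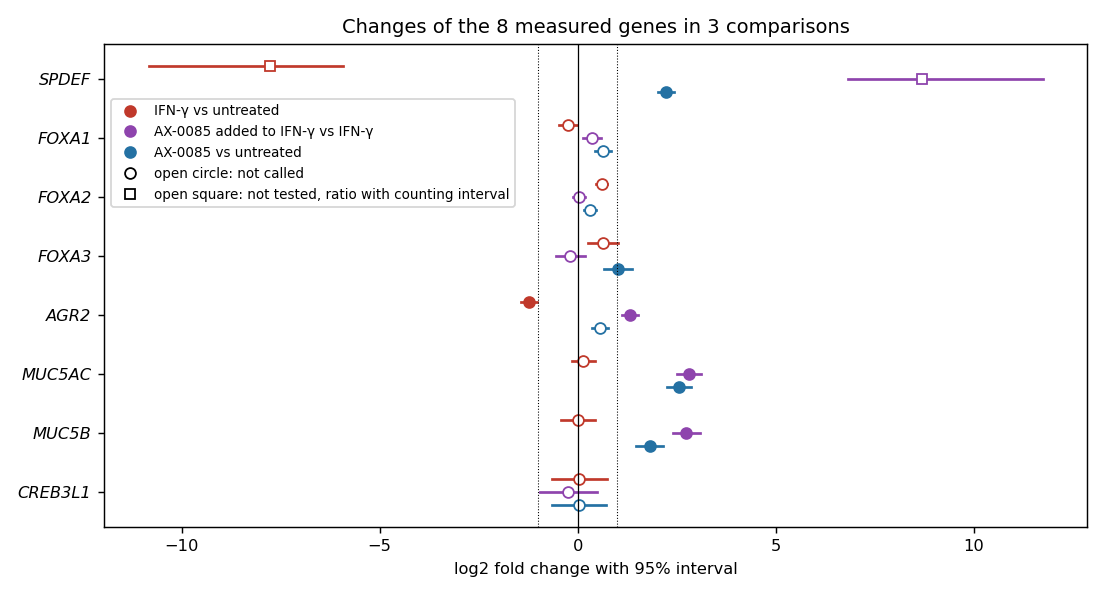
Log2 fold changes of the 8 measured genes in 3 comparisons with 95% intervals from edgeR. Filled circles were called, open circles were not, and dotted lines mark the fold required. Open squares show SPDEF in the comparisons for which it was picked, as a ratio with its counting interval. AGR2 changed in opposite directions with IFN-γ and on addition of AX-0085, and the mucins changed with AX-0085 alone and on its addition.

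Genes that work beside the 9 were taken from fixed lists. Their counts are to be read against the shares of all 15066 genes called, which were 10.3% higher and 17.2% lower with IFN-γ, 16.5% higher and 8.28% lower when AX-0085 was added, and 6.41% higher and 5.62% lower with AX-0085 alone. Of the listed genes named below, MUC2, MUC16, ST6GALNAC2, CREB3L3 and SFTPC passed the expression filter only through libraries given AX-0085, where they were high. Rises of these genes with AX-0085 are therefore partly fixed by the filter. TFF1 and LAMP3 passed it only through libraries given IFN-γ, so that their rises with IFN-γ are partly fixed in the same way. The list of secretory effectors had 9 tested genes, of which 1 was called higher and 5 lower with IFN-γ, 3 higher and 0 lower when AX-0085 was added, and 0 with AX-0085 alone by edgeR, where 3 had an adjusted p under 0.05 and leaving out any 1 library gave between 1 and 3. The median log2 fold changes were -1.09, 0.92 and 0.18 against -0.06, 0.03 and 0.01 for all genes tested. FCGBP, a mucus-associated protein of goblet cells, had 345 and 225 counts in untreated cells, 40 and 53 with IFN-γ, 485 and 355 with both, and 589 and 451 with AX-0085. CYP2F1, a cytochrome P450 of club cells, had 22 and 17, 0 and 1, 28 and 16, and 16 and 13 counts, so that the untreated level was 31.2 times that with IFN-γ (counting interval 5.28 to 1263). CEACAM6, an epithelial adhesion molecule, had 41 and 22, 2 and 0, 20 and 15, and 65 and 49 counts. These 3 genes were low in the same libraries as SPDEF, and were the 3 called higher when AX-0085 was added. The other genes called lower with IFN-γ were not called on that addition. They were SLPI (-1.09 with IFN-γ, 0.10 on addition) and ELAPOR1 (-1.22 and 0.92). ZG16B was lower in both comparisons without a call, at -0.53 and -0.69. TFF1, a trefoil peptide, was the gene called higher with IFN-γ (1.11 ± 0.39 SE, adjusted p = 0.02129), from at most 21 counts.

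Among the other mucins, 5 of 14 genes were tested. With IFN-γ 0 were called by edgeR, with 1 at an adjusted p under 0.05, and 2 called without untreated replicate 2. When AX-0085 was added 2 rose, and with AX-0085 alone 2 rose and 1 fell. MUC16, a membrane mucin, had 19 and 5 counts in untreated cells, 6 and 4 with IFN-γ, 34 and 16 with both, and 47 and 45 with AX-0085, and rose with AX-0085 alone by 2.02 ± 0.39 SE (adjusted p = 7.204e-04). MUC2, the gel-forming mucin of the gut, was the other gene that rose, with 8 and 4, 7 and 5, 24 and 23, and 9 and 24 counts. The 2 calls on addition of AX-0085 became 0 without IFN-γ replicate 2 and 1 without replicate 1 of both. MUC12, a membrane mucin, fell by 1.89 on the log2 scale with AX-0085 alone (adjusted p = 0.002304). MUC1, a membrane mucin of most epithelia, was not called in these comparisons, with 0.45, -0.06 and 0.76.

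Genes of mucin-type O-glycosylation moved in both directions. Of 19 tested, 1 rose and 7 fell with IFN-γ, where 10.3% of all genes rose and 17.2% fell. When AX-0085 was added 7 rose and 1 fell, where 16.5% of all genes rose and 8.28% fell, and with AX-0085 alone 1 rose and 1 fell. The medians were -0.44, 0.63 and -0.11. GALNT6, which starts O-glycan chains, had 326 and 253 counts in untreated cells, 24 and 23 with IFN-γ, 102 and 78 with both, and 164 and 155 with AX-0085. Its fall with IFN-γ was -3.29 ± 0.17 SE (adjusted p = 2.278e-09), and the libraries given both stayed below the untreated ones. FUT2, the secretor fucosyltransferase, had 30 and 24, 3 and 3, 45 and 19, and 30 and 31 counts. ST6GALNAC2, a sialyltransferase, had 7 and 5, 3 and 4, 30 and 36, and 27 and 20 counts, and so was high in both groups given AX-0085. GCNT4, a branching enzyme, went the other way with 27 and 29, 62 and 89, 30 and 16, and 10 and 12 counts.

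The epithelial ETS factors, the family of SPDEF, gave 1 higher and 1 lower of 5 with IFN-γ (27.5% of all genes called), 2 higher and 0 lower (24.8%) when AX-0085 was added, and 0 with AX-0085 alone by edgeR, with 3 at an adjusted p under 0.05 and 1 called without AX-0085 replicate 2. EHF, an ETS factor of secretory epithelia, had 73 and 58 counts in untreated cells, 10 and 9 with IFN-γ, 50 and 42 with both, and 56 and 60 with AX-0085. It fell by 2.45 ± 0.28 SE on the log2 scale with IFN-γ (adjusted p = 4.227e-06). ELF3, another epithelial ETS factor, had 2048 and 1574, 769 and 867, 4283 and 2870, and 3328 and 3053 counts. Its value with IFN-γ was -0.81 ± 0.09 SE, short of a call, and it rose by 1.82 ± 0.09 SE when AX-0085 was added (adjusted p = 1.262e-09). ELF1, a broadly expressed ETS factor, rose with IFN-γ by 1.16 ± 0.07 SE (adjusted p = 1.295e-08). The medians of the 5 genes were 0.38, -0.34 and -0.04.

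Regulators of goblet cell fate moved in both directions. Of 20 tested, 6 rose and 5 fell with IFN-γ (27.5% of all genes called), 5 rose and 2 fell when AX-0085 was added (24.8%), and 3 rose and 3 fell with AX-0085 alone (12.0%), with medians of 0.24, -0.24 and 0.08. NOTCH3, a receptor that guides secretory fate, had 3944 and 3173 counts in untreated cells, 444 and 632 with IFN-γ, 10892 and 8116 with both, and 9299 and 9192 with AX-0085. It fell by 2.41 ± 0.07 SE with IFN-γ (adjusted p = 8.300e-12) and rose by 3.86 ± 0.07 SE when AX-0085 was added (adjusted p = 4.413e-13). KLF4, a factor of epithelial differentiation, rose with IFN-γ by 2.62 ± 0.08 SE (adjusted p = 1.955e-11) and with AX-0085 alone by 1.22 ± 0.08 SE. GRHL1, a grainyhead factor, fell by 1.94 ± 0.26 SE with AX-0085 alone (adjusted p = 4.222e-05). XBP1, a factor of the unfolded protein response in secretory cells, rose with IFN-γ by 1.30 ± 0.08 SE and with AX-0085 alone by 1.24 ± 0.08 SE.

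Machinery of the secretory pathway had few calls, without a test against other genes. Of 18 tested genes of the CREB3 family and of transport between endoplasmic reticulum and Golgi, 1 rose and 1 fell with IFN-γ (27.5% of all genes called), 2 rose and 0 fell when AX-0085 was added (24.8%), and 0 were called with AX-0085 alone by edgeR (12.0%), although 10 then had an adjusted p under 0.05. Without IFN-γ replicate 2, 4 were called with IFN-γ. The medians were 0.21, -0.04 and 0.34. KDELR3, a retrieval receptor of the Golgi, fell by 1.59 ± 0.10 SE with IFN-γ (adjusted p = 8.672e-09) and rose by 1.67 ± 0.10 SE when AX-0085 was added. ATF6, a sensor of unfolded proteins, rose with IFN-γ by 1.55 ± 0.06 SE (adjusted p = 9.466e-11). CREB3L3, a relative of CREB3L1, was higher with both than with IFN-γ, with 16 and 15 against 0 and 3 counts. Among 13 tested genes of the protein disulfide isomerase family of AGR2, 0 were called with IFN-γ and 0 when AX-0085 was added by edgeR (27.5% and 24.8% of all genes), where 6 and 7 had an adjusted p under 0.05. Leaving out IFN-γ replicate 2 gave 1 call with IFN-γ. ERP29 was the gene called with AX-0085 alone, at 1.15 ± 0.06 SE (adjusted p = 6.090e-09). The medians of this family were -0.04, 0.08 and 0.16.

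**Figure D3:**
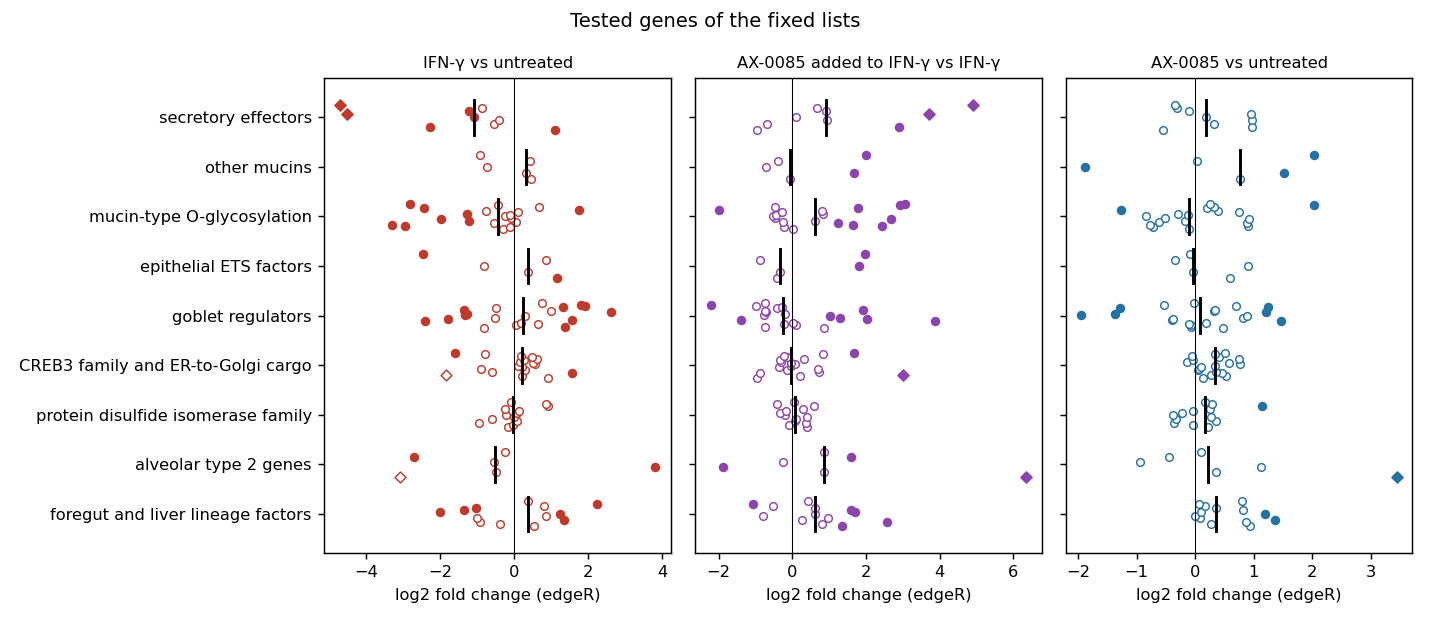
Log2 fold changes of the tested genes of 9 fixed lists in 3 comparisons. Filled symbols were called, open symbols were not, diamonds have at most 3 counts in 1 of the groups so that their fitted value depends on the prior count, and black bars are medians. Secretory effectors had a median of -1.09 with IFN-γ and 0.92 when AX-0085 was added.

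Alveolar and foregut genes were examined because A549 is labelled as alveolar. Of 6 tested alveolar type 2 genes, 1 rose and 1 fell with IFN-γ (27.5% of all genes called), 2 rose and 1 fell when AX-0085 was added (24.8%), and 1 rose with AX-0085 alone (12.0%), with medians of -0.51, 0.86 and 0.23. With the genes at 0 in a group left out or set to their bound, the first was -0.49. SFTPC, the surfactant protein C gene, had 0 and 2 counts in untreated cells, 0 and 0 with IFN-γ, 10 and 11 with both, and 12 and 11 with AX-0085. SFTPC was the gene called with AX-0085 alone and 1 of the 2 that rose on its addition. It passed the filter only through libraries given AX-0085, so these calls are partly fixed by the filter. Its level with both was at least 2.92-fold higher than with IFN-γ. LAMP3, a lysosomal protein of lamellar bodies that dendritic cells also make, had 6 and 6, 49 and 90, 32 and 14, and 8 and 17 counts. LAMP3 was the gene that rose with IFN-γ. It passed the filter only through libraries given IFN-γ, so that call too is partly fixed by the filter. CLDN18, a tight junction protein, had 25 and 17, 1 and 4, 12 and 7, and 11 and 18 counts. These 3 genes had at most 90 counts in any library.

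Of 13 tested foregut and liver lineage factors, 3 rose and 3 fell with IFN-γ (27.5% of all genes called), 4 rose and 1 fell when AX-0085 was added (24.8%), and 2 rose with AX-0085 alone (12.0%), with medians of 0.38, 0.63 and 0.36. HNF4A, a nuclear receptor of gut and liver, had 876 and 731 counts in untreated cells, 287 and 395 with IFN-γ, 2860 and 2065 with both, and 1258 and 1505 with AX-0085. It was -0.92 ± 0.09 SE with IFN-γ, short of a call, and rose by 2.57 ± 0.08 SE when AX-0085 was added (adjusted p = 3.698e-11). Like MUC5AC and MUC5B, it was highest with both. ONECUT1, a liver and pancreas factor, had 31 and 30, 3 and 9, 24 and 24, and 30 and 32 counts. CEBPB, a factor of inflammation, rose with IFN-γ by 2.24 ± 0.15 SE (adjusted p = 2.907e-08). HNF4G rose with IFN-γ by 1.33 ± 0.20 SE and with AX-0085 alone by 1.36 ± 0.19 SE.

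The genes beside SPDEF and AGR2 on the chromosome were compared by position. Neighbours were the nearest protein-coding genes with an average of at least 10 counts per library, a rule chosen after the members' values were known. PACSIN1, an endocytosis adaptor 2.57 kb from SPDEF with its 3' end facing that of SPDEF, was counted 22 and 21 times in untreated cells, 0 and 0 with IFN-γ, 83 and 55 with both, and 72 and 86 with AX-0085. Its level with IFN-γ was at least 5.67-fold lower than untreated, and with both it was at least 18.4-fold higher than with IFN-γ. It rose with AX-0085 alone by 1.95 ± 0.23 SE (adjusted p = 1.931e-05). The 2 genes do not overlap in the annotation, and reads that run past the end of a gene cannot be seen in a table of counts. ILRUN, 31.0 kb away on the other side, gave 0.27, -0.23 and -0.13 in the 3 comparisons.

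TSPAN13, a tetraspanin 7.28 kb from AGR2, had 761 and 567 counts in untreated cells, 73 and 100 with IFN-γ, 445 and 287 with both, and 705 and 815 with AX-0085. It fell by 2.61 ± 0.11 SE with IFN-γ (adjusted p = 2.989e-10) and rose by 1.79 ± 0.12 SE when AX-0085 was added (adjusted p = 2.523e-08). SNX13, 957 kb away on the other side, gave 0.11, -0.00 and 0.43. Around the mucins, MUC2 lies 47.4 kb from MUC5AC and TOLLIP, an adaptor of innate signaling, 12.2 kb from MUC5B. TOLLIP gave -0.15, 0.54 and 0.23, without a call.

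**Figure D4:**
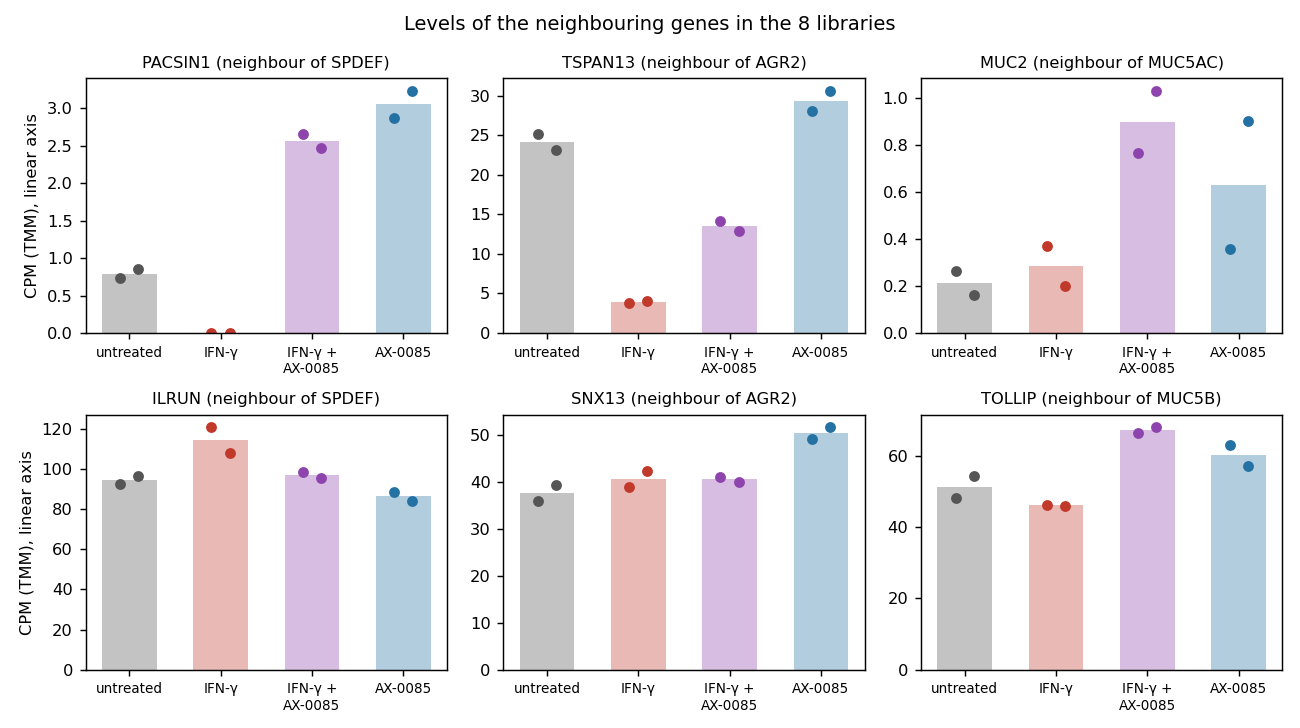
CPM of 6 neighbouring genes on linear axes from 0, by group. Bars are means and points the 2 libraries. PACSIN1 had 0 counts in both IFN-γ libraries and TSPAN13 fell by 2.61 on the log2 scale, whereas ILRUN, SNX13 and TOLLIP moved by at most 0.54 on the log2 scale in the 3 comparisons.

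The genes whose pattern was most like that of SPDEF were sought among 873 genes with a range of group means of at least 3 on the log2 scale. By Pearson's r of log2 CPM over the 8 libraries they were ANXA13, ACSM3, JUP, ASB9, PDGFRL, TP53I11, LINC01719 and RAB40B, with r between 0.997 and 0.999. ANXA13, an annexin, had 185 and 165 counts in untreated cells, 3 and 4 with IFN-γ, 349 and 241 with both, and 463 and 529 with AX-0085. JUP, the junction protein plakoglobin, had 5694 and 4710, 362 and 436, 6650 and 4757, and 9378 and 9365 counts. All 8 were lowest with IFN-γ and highest with AX-0085, which follows from their selection by likeness to SPDEF and is not a separate result. The list depends on the measure, as 4 of the 8 were among the first 8 with a prior count of 2 and 2 with group means in place of libraries.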

How the data were processed

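The 8 libraries of A549 RNA comprised 2 per group. The authors trimmed reads with Trim Galore 0.6.7, mapped them to GRCh38 with STAR 2.7.9a and deposited raw counts per gene from featureCounts, without normalization. The annotation release and the strand setting are not given in the sources used here. Positions, symbols and overlaps were taken from GENCODE 44, which named 60463 of the 60664 genes, and promoter windows from RefSeq (GRCh38.p14). All columns of the table were used.

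Counts were filtered with filterByExpr, scaled with TMM factors (0.916 to 1.04) and tested with the quasi-likelihood test of edgeR 4.0.16 under R 4.3.3, in a single fit of the 4 groups that used every library and no covariate. P-values were adjusted by the Benjamini-Hochberg method over the 15066 genes tested, and all tests were two-sided. Calls used an adjusted p below 0.05 together with a change beyond 1 on the log2 scale. Fold changes against a group at 0 were computed against 3 counts per library. An exact permutation test of 2 against 2 libraries cannot go below 0.333, so none was used. The 2 libraries of a group differed by more than counting noise (chi-square per degree of freedom 8.55 to 27.7). The labels give no batch. Library names carry the letter A for replicate 1 of every group and B for replicate 2, and what the letters stand for is not given.

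The genes and lists were chosen with earlier results of these data known. The genes named were the 9 chosen, the called gene with the largest rise and fall of each list in 3 comparisons, 9 genes given whatever their values (ELF3, EHF, ERN2, MUC1, TFF3, XBP1, HNF4A, SFTPB and SCGB1A1), the 8 genes most like SPDEF, and CD274 and GBP1. EPCAM, KRT7, KRT18, FOXJ1, TPPP3, CAPS, CD68, FCGBP, CEACAM6, SLPI, ELAPOR1, ZG16B, the genes at 0 and the neighbours were named after their values were seen. Some items that meet these rules are not reported here.

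On simulated counts for IFN-γ against untreated (14359 genes), 50 genes were planted at each of 4 log2 fold changes, -3, -2, 2 and 3. Of these, 100% were called in the right direction. Changes near the threshold of 1 were not planted, so the simulation does not cover them. The alternatives were the Wald test of DESeq2 1.42.0, its size factors, library size alone, other filters, the replicate number as a block, a fit restricted to the groups compared, calls by adjusted p without a fold, and each library left out. Same-numbered libraries did not deviate together (correlations between -0.088 and 0.0634).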

Additional observations from a re-analysis of the deposited data

Results flagged for a closer look

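Of the 7 genes other than SPDEF, 4 had an interaction term with an adjusted p under 0.05 in edgeR. The share of all genes by that measure is not given here, so the count is not read as particular to these genes. With the fold required as well, 1 of the 7 was called, FOXA3, against 18.6% of all genes. The term was -0.27 for FOXA2 (adjusted p = 0.0274), -1.21 for FOXA3 (adjusted p = 7.856e-04), 0.77 for AGR2 (adjusted p = 2.972e-04) and 0.93 for MUC5B (adjusted p = 0.005331, and 0.07107 without untreated replicate 1). AX-0085 added to IFN-γ gave -0.19 for FOXA3 where AX-0085 alone gave 1.02, and 1.33 for AGR2 where AX-0085 alone gave 0.56. Groups of 2 libraries are too small for a check of single libraries that stand apart.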

How the results depend on the processing

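The counts of called genes among the 9 changed with the adjusted p alone, to 4 with IFN-γ, 7 with AX-0085 alone, 6 for both against AX-0085, 4 for both against untreated and 4 for the interaction. The interaction gave 2 with library size alone, and between 1 and 2 when 1 library was left out. Library size alone moved the median of all genes from -0.06 to -0.175 with IFN-γ. The labels do not say whether libraries of the same replicate number were paired. With the replicate number as a block the counts were 1, 3, 4, 0, 2 and 1 in the 6 comparisons, as without it. The calls of AGR2, MUC5AC and MUC5B in the comparisons of 2 groups kept their direction and stayed called under the alternatives run, leaving out each library included.

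Small changes that were not called changed sign. For MUC5B with IFN-γ the value was 0.0555 with DESeq2, 0.0446 with RLE size factors, 0.0435 with only the groups compared and 0.00989 with the replicate block, and leaving out 1 library gave -0.24 to 0.39. The same range was -0.12 to 0.52 for MUC5AC with IFN-γ. CREB3L1 with IFN-γ was -0.0784 with library size alone and -0.0107 with at least 10 counts in every library. FOXA2 on addition of AX-0085 was -0.00744 with DESeq2 and -0.00748 with RLE size factors. Leaving out 1 library gave, for CREB3L1, -0.10 to 0.21 with IFN-γ, -0.54 to 0.0671 on addition of AX-0085, -0.27 to 0.29 with AX-0085 alone, -0.53 to 0.10 for both against AX-0085, -0.50 to 0.15 for both against untreated and -0.57 to 0.0271 for the interaction. It gave -0.0226 to 0.27 for FOXA1 in both against untreated and -0.0946 to 0.52 for the interaction of MUC5AC. The cause of these sign changes was not tested. Of the other changes recomputed, 672 kept their direction and side of the threshold, and 57 counts of listed genes moved by over 1.5 times while 375 did not. With 2 libraries per group, the SE of a log2 fold change was 0.32 for CREB3L1 and 0.09 for AGR2 with IFN-γ.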
